A study of Caenorhabditis elegans with 7 samples.

Results

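The 5 genes described here for membrane traffic and phospholipid signalling were followed in the DD motor neurons of first-stage (L1) larvae of Caenorhabditis elegans: vps-35, C43H6.1 (now trpp-12), pld-1, C32D5.3 (now efr-3) and D2092.1 (now mctp-1). They are 5 of the 201 genes named in the authors' deposited table, which lists 236 probe sets as higher in DD neurons, and 6 probe sets on that list stand for them, with 2 for pld-1 and 1 for each other gene, among 22548 tested on each array. Probe sets outside the list carried no gene name here, so any further probe set of these genes was not analysed. The authors' table was chosen on these same arrays by a score and at least 2-fold, so the differences between DD neurons and all cells given here describe the genes and do not test them. The label of the group rests on what these proteins are known to do in C. elegans or in other animals, not on a measurement.

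Gene expression was measured on Affymetrix arrays in 4 samples of DD neurons and 3 samples of all cells. The DD neurons came from strain CZ8332, which carries the integrated transgene juIs223 on chromosome IV, in which the ttr-39 promoter drives mCherry and the ttx-3 promoter drives GFP. They were sorted by fluorescence for the mCherry, although one label of these samples names GFP. The all-cell samples came from the wild-type strain N2, with no transgene named and no sort or dissociation step given. Both groups were fed the bacterial strain NA22 as parents, hatched overnight without food at 20 °C and were arrested in growth as L1 larvae, and their RNA was amplified from 5 to 10 ng before labelling. The reporter marks whatever cells use the ttr-39 promoter, and strain, sort and cell type changed together, so their effects cannot be told apart. In RNA from sorted and from all-cell samples, a higher share of cells that express a gene and more RNA per cell cannot be told apart either. Whether the samples within each group were grown separately is not in the labels, so the spread given here is that between arrays and may be technical.

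All 7 listed markers of D-type GABAergic neurons, among them the GABA synthesis gene unc-25, were on the authors' list too, with log2 differences of 1.51 to 3.48. Only genes on that list could be read, so these values do not check the label of the sorted cells. Of 37 markers listed for other cells 4 could be named, all of them also on the authors' list: ttn-1 of muscle (log2 difference 1.18), acdh-1 of the intestine (1.86), ptr-24 of the epidermis (1.03) and pgl-1 of the germ line (1.07). These sizes overlap those of the 5 genes, and the part of other cells in the results was not tested. Correlations across probe sets were 0.957 to 0.974 between DD arrays and 0.936 to 0.971 between groups. The array that correlated least with its own group was DD replicate 1, at a mean of 0.960. As a set, the 77 array controls averaged 5.85 ± 0.13 (log2, SD, n = 4) on DD arrays, against 5.49 ± 0.09 (SD, n = 3) on all-cell arrays.

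Cells sort proteins and lipids between their membranes by budding, tethering and fusing vesicles and by marking each membrane with its own phospholipids. Retromer carries cargo back from endosomes, TRAPP complexes tether vesicles on their way to and through the Golgi, and phospholipases and lipid kinases at the plasma membrane make the lipid signals that recruit further proteins. Neurons depend on these routes to bring receptors and vesicle proteins into axons and to return them. No sequence of a probe, promoter or protein was used here.

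The gene vps-35 encodes the large scaffold subunit of retromer, which in C. elegans is needed to recycle the Wnt carrier MIG-14 and so for Wnt secretion. Its log2 levels were 8.13, 8.12, 8.16 and 8.27 in DD neurons, against 7.28, 6.73 and 6.85 in all cells. The DD arrays lay within 0.15 of each other and the groups did not overlap, with the lowest DD array 0.84 above the highest all-cell array. DD neurons averaged 8.17 ± 0.07 (SD, n = 4), against 6.95 ± 0.29 (SD, n = 3) for all cells, which is a log2 difference of 1.22 ± 0.18 (SE) or 2.32-fold. Of all probe sets, 2.8% had a smaller SD among the DD arrays. That SD entered the authors' score and is no separate finding.

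C43H6.1 encodes the C. elegans counterpart of TRAPPC12, which in mammals is a subunit of a TRAPP tethering complex between the endoplasmic reticulum and the Golgi. Its log2 levels were 5.80, 7.14, 6.87 and 6.16 in DD neurons, against 5.61, 5.35 and 5.23 in all cells. The all-cell arrays were close together, while DD replicates 2 and 3 stood well above DD replicates 1 and 4. The groups did not overlap, but DD replicate 1 was only 0.20 above the highest all-cell array. Means of 6.49 ± 0.62 (SD, n = 4) for DD neurons and 5.4 ± 0.19 (SD, n = 3) for all cells gave a log2 difference of 1.10 ± 0.33 (SE) or 2.14-fold. Without DD replicate 1 the difference was 1.33, and without DD replicate 2 it was 0.88.

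**Figure D1:**
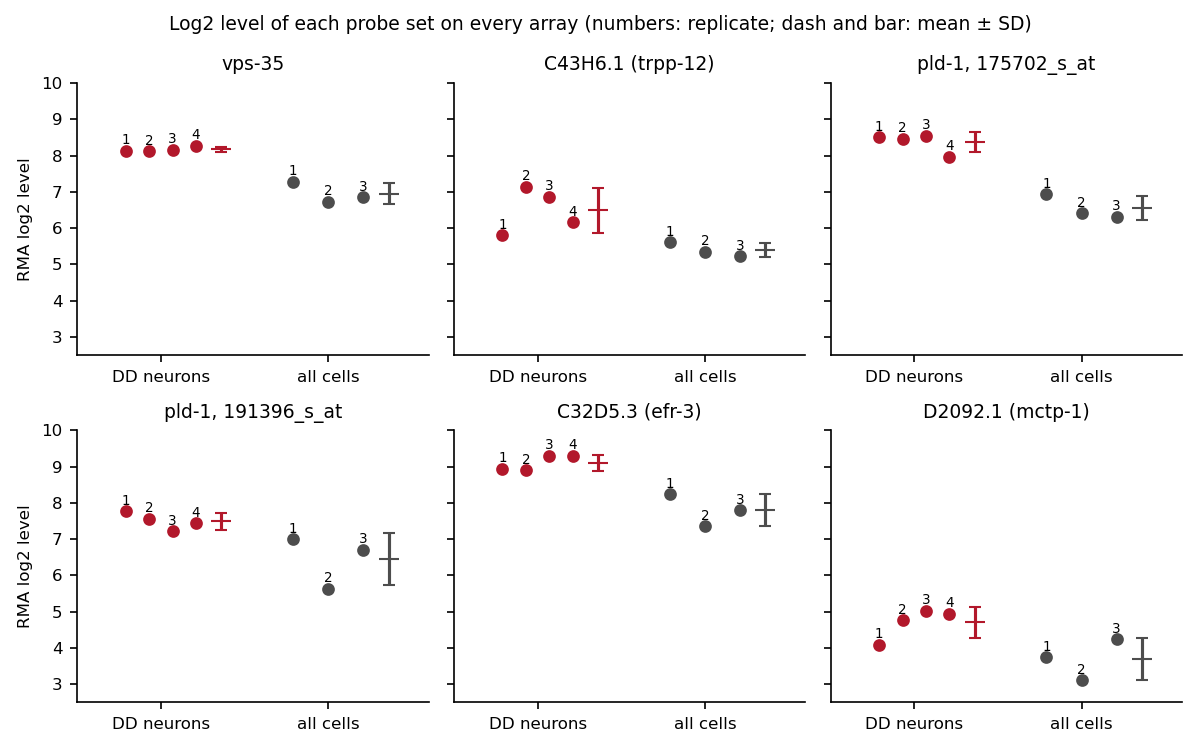
RMA log2 level (vertical axis) of the 6 probe sets in each of 4 DD arrays and 3 all-cell arrays, with replicate numbers, and the mean and SD of each group beside the points. The DD arrays of vps-35 lie within 0.15 of each other, and D2092.1 is the one gene whose lowest DD array (4.09) is below an all-cell array (4.24).

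The gene pld-1 encodes phospholipase D, which cuts phosphatidylcholine into choline and phosphatidic acid, a signalling lipid that also shapes membranes for budding and fusion. By probe set 175702_s_at, its log2 levels were 8.51, 8.47, 8.54 and 7.97 in DD neurons, against 6.93, 6.41 and 6.32 in all cells. DD replicate 4 was the low one of its group and still 1.03 above the highest all-cell array. DD neurons averaged 8.37 ± 0.27 (SD, n = 4) and all cells 6.55 ± 0.33 (SD, n = 3), and the log2 difference of 1.82 ± 0.22 (SE), or 3.52-fold, ranked 50th of the 236 listed probe sets.

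By its other probe set, 191396_s_at, the levels of pld-1 were 7.77, 7.56, 7.22 and 7.44 in DD neurons, against 7.0, 5.63 and 6.70 in all cells. Here DD replicate 3 was lowest in its group, all-cell replicate 2 lay far below the other all-cell arrays, and the groups were 0.21 apart. Means of 7.50 ± 0.23 (SD, n = 4) for DD neurons and 6.45 ± 0.72 (SD, n = 3) for all cells gave a log2 difference of 1.05 ± 0.32 (SE) or 2.07-fold. Without all-cell replicate 2 this difference was 0.64. Both are on the authors' list, which fixes their common direction. Their differences were 0.77 apart on the log2 scale. With 1 array left out in turn, the first gave 1.70 to 2.01 and the second 0.64 to 1.33. These ranges share most of their arrays and are no measure of uncertainty. The level of the first minus that of the second averaged 0.87 ± 0.34 (SD, n = 4) in DD neurons. In all cells it averaged 0.11 ± 0.60 (SD, n = 3), and all-cell replicate 2, at 0.78, lay within the DD values of 0.53 to 1.32. Whether the 2 probe sets differ in their group difference was not tested. The deviations of the 2 probe sets from their group means correlated at r = 0.39 over the 7 arrays, which is a description of arrays that share samples. Both carry the suffix _s that Affymetrix gives to probe sets matching several transcripts, as do those of C32D5.3 (187369_s_at) and D2092.1 (191864_s_at), while those of vps-35 (193065_at) and C43H6.1 (183602_at) do not. RefSeq lists 1 transcript of pld-1. The protein-coding gene txt-9 and the non-coding gene C04G6.14 overlap it there, and whether either adds to the signals was not tested.

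**Figure D2:**
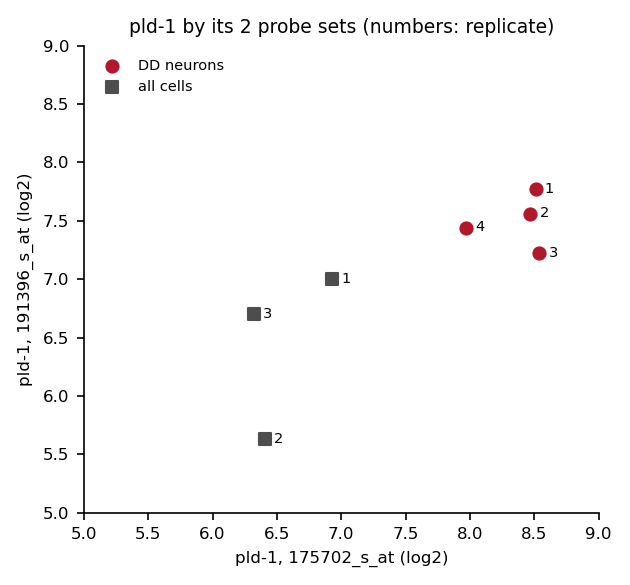
Log2 level of pld-1 by probe set 175702_s_at (horizontal axis) and by probe set 191396_s_at (vertical axis) on each of 4 DD arrays (circles) and 3 all-cell arrays (squares), with replicate numbers. The groups are apart on both axes, by 1.03 on the horizontal and 0.21 on the vertical one, and all-cell replicate 2 is low on the vertical axis (5.63).

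C32D5.3 encodes the C. elegans counterpart of EFR3, known in Drosophila as Rolling blackout, which in yeast and mammals holds a phosphatidylinositol kinase at the plasma membrane and in Drosophila is needed for phospholipase C signalling in phototransduction. Its log2 levels were 8.94, 8.90, 9.30 and 9.30 in DD neurons, against 8.24, 7.36 and 7.79 in all cells. The DD arrays fell in 2 close pairs, the all-cell arrays were spread over 0.88, and the groups were 0.66 apart. DD neurons averaged 9.11 ± 0.22 (SD, n = 4) and all cells 7.80 ± 0.44 (SD, n = 3), which is a log2 difference of 1.31 ± 0.24 (SE) or 2.48-fold.

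D2092.1 encodes a protein of the MCTP family, which has C2 domains and membrane-spanning segments; in Drosophila its counterpart lies on the endoplasmic reticulum of motor neurons and is needed there for homeostatic control of transmitter release. Its log2 levels were 4.09, 4.77, 5.02 and 4.94 in DD neurons, against 3.74, 3.11 and 4.24 in all cells. The groups overlapped, since DD replicate 1 was below all-cell replicate 3. Means of 4.70 ± 0.42 (SD, n = 4) for DD neurons and 3.70 ± 0.57 (SD, n = 3) for all cells gave a log2 difference of 1.01 ± 0.32 (SE) or 2.01-fold. Every DD and all-cell value was below the median of its own array, and the all-cell values lay between the 16.1 and the 34.2 percentile of theirs. The files hold neither a detection call nor a background level, which leaves the fold of D2092.1 inexact. Without all-cell replicate 2 the difference was 0.72, and without all-cell replicate 3 it was 1.28. RefSeq lists 4 transcripts for D2092.1 and 1 for each other gene.

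Of the 6 probe sets, 5, all but that of D2092.1, had every DD array above every all-cell array. In this direction 6.98% of all probe sets and 222 of the 236 listed ones were separated. By limma, 2 of the 6 probe sets, those of vps-35 and the first of pld-1, had an adjusted p under 0.05 in this contrast, where 0.191% of all probe sets were called higher. No member was called lower by limma (0 of 6), where 0.226% of all probe sets were. At limma's unadjusted p under 0.05, 0 of 6 were lower and 6 of 6 higher, where 2096 and 1369 of 22548 probe sets were. The same arrays chose the genes, so nothing is read from any of these counts. Both calls were lost without DD replicate 1, 2 or 3 or all-cell replicate 2 or 3, and without DD replicate 4 that of vps-35 was lost. In the fits that lost both, limma called 0 of 6 each time, with 5 or 6 of the 6 at an unadjusted p under 0.05. Over all 22548 probe sets, the same fits called 6 to 18 higher, with 860 to 1254 higher at an unadjusted p under 0.05. The median log2 difference of the 6 probe sets was 1.16, against 0.06 for all tested and 1.24 for the 236 listed probe sets. D2092.1 stood at the edge of the list: its difference was 1.0085, with 11 listed probe sets below it and 1.0005 as the lowest. Just outside, an unlisted probe set with no name had 0.9996, and 113 unlisted ones were at least 2-fold higher without being on the list.

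The array controls were higher in DD neurons by 0.36 (difference of the group means), and scaling each array to them lowered every difference by that amount. The 6 probe sets then differed by 0.65 to 1.46, and the first probe set of pld-1 alone remained at 2-fold or more. This scaling moved the median of all tested probe sets to -0.30. Relative to the median of all probe sets, the 6 differences were 0.95 to 1.76 under either scaling. Whether the shift of the controls is technical was not tested.

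**Figure D3:**
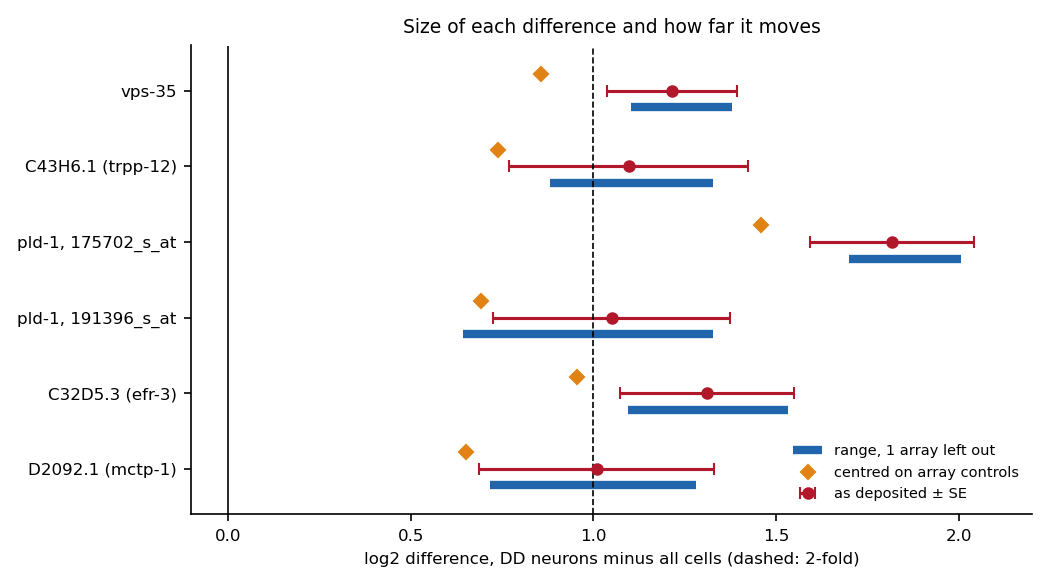
Log2 difference, DD neurons minus all cells (horizontal axis), of the 6 probe sets: as deposited with its SE (circles), after centring each array on its array controls (diamonds), and the range with 1 array left out in turn (bars), with the dashed line at 2-fold. All values are above 0, and the diamonds lie below 2-fold except that of pld-1 by 175702_s_at, at 1.46.

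A common direction of deviation was seen in all-cell replicates 1 and 2 only. Deviations within a group cancel out over its arrays, so those of these arrays are linked, and 2 of the 6 probe sets belong to pld-1. All 6 probe sets were above their group mean in all-cell replicate 1 and below it in all-cell replicate 2, while 54% and 51% of all tested probe sets were above theirs on these arrays. Averaged over the 6, the deviation was 0.33 in all-cell replicate 1, -0.37 in all-cell replicate 2 and 0.05 in all-cell replicate 3. The DD arrays showed no such common direction, with 2, 4, 4 and 3 of the 6 above the mean in DD replicates 1 to 4. C43H6.1 and D2092.1 were both lowest in DD replicate 1, with deviations of -0.69 and -0.61, where both probe sets of pld-1 were above theirs.

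Over the 7 arrays, the deviations of vps-35 and C32D5.3 from their group means correlated at r = 0.89, the highest of the 15 pairs. The pair of D2092.1 with the first pld-1 probe set had the lowest, -0.21, and the median was 0.37. The same r was not taken over pairs of all tested probe sets, so this median has no background here. All pairs share the same arrays and samples, and 5 degrees of freedom remain once the group means are taken out.

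**Figure D4:**
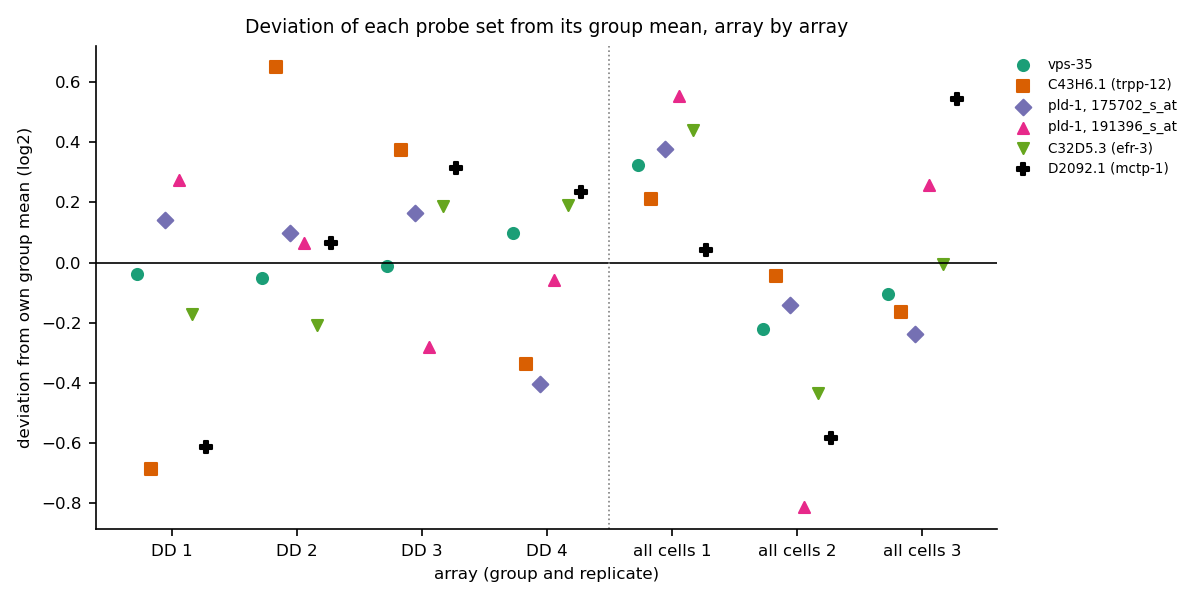
Deviation of each of the 6 probe sets from its own group mean (vertical axis, log2) on the 4 DD arrays and the 3 all-cell arrays (horizontal axis). All 6 points are above 0 in all-cell replicate 1 and below 0 in all-cell replicate 2, and in DD replicate 1 C43H6.1 and D2092.1 deviate by -0.69 and -0.61.

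Few other genes of these routes could be named, because names were given here only for the authors' list of higher probe sets. Of 121 listed genes, 7 could be named: the 5 genes themselves, mtm-3 and unc-26. The lists covered retromer and sorting nexins, phospholipases and their lipid products, phosphoinositide metabolism, tethers, C2-domain proteins and Rab GTPases. The list of Rab GTPases and their regulators had none of 27, and among the 10 of retromer and sorting nexins vps-35 alone was named. The genes without a name here are not shown to be unchanged. Neither mtm-3 nor unc-26 passed limma's threshold, and all 7 came from a list of higher probe sets, which fixes their direction.

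The list of 17 phosphoinositide genes also held C32D5.3. In it, mtm-3, a phosphatase of the myotubularin family, read 8.88 to 9.16 in DD neurons, against 7.43 to 8.16 in all cells. Its log2 difference was 1.11 ± 0.22 (SE), and its groups did not overlap. The synaptojanin gene unc-26, whose product strips phosphates from inositol lipids on endocytosed vesicles, read 7.67 to 8.88 in DD neurons, against 7.06 to 7.36 in all cells, a log2 difference of 1.02 ± 0.28 (SE). Like the 5 genes, both had been selected by the authors as higher on these arrays.

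Likeness was taken as Pearson's r of the log2 levels over the 7 arrays with each of 196 other named genes. All of these were selected as higher in DD neurons, so r is high throughout, with a median of 0.86 for vps-35 and 0.67 for C43H6.1. The r of the deviations from the group means, which leaves the group difference out, is therefore given beside it. The gene most like C32D5.3 was mtm-3, at 0.98 (0.90 for deviations), followed by itsn-1 at 0.97 (0.79) and C11E4.6 at 0.97 (0.81). For vps-35 the closest were pcf-11 at 0.98 (0.78), cle-1 at 0.98 (0.62) and dnj-8 at 0.97 (0.77).

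The 2 probe sets of pld-1 had different neighbours. The first was closest to twk-7, pqn-44 and uaf-1, each at 0.98 (0.66, 0.69 and 0.88 for deviations). The second was closest to gon-4 at 0.98 (0.96), klp-4 at 0.96 (0.89) and zak-1 at 0.95 (0.88). D2092.1 was closest to pme-5 at 0.96 (0.91), F46H5.4 at 0.95 (0.88) and ric-4, the SNAP-25 gene of vesicle fusion, at 0.95 (0.92). C43H6.1 was closest to nhr-17 at 0.97 (0.91), the heat shock gene hsp-70 at 0.94 (0.87) and csr-1 at 0.93 (0.79). These neighbours were not stable. Over 10 other scalings or array sets for each probe set, the closest gene stayed the closest in 29 of 60 cases: 4 of 10 for vps-35, 0 and 8 for the first and second probe set of pld-1, 4 for C32D5.3, 5 for D2092.1 and 8 for C43H6.1.

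In the RefSeq annotation of WBcel235, 3 of the 5 genes lie on chromosome II: pld-1 at 5083848 to 5091690, vps-35 at 5907816 to 5911255 and C32D5.3 at 6318087 to 6321101. They are not neighbours, with 233 protein-coding genes between pld-1 and vps-35 and 84 between vps-35 and C32D5.3. D2092.1 lies on chromosome I at 6629569 to 6637429, where the non-coding gene D2092.14 overlaps it. C43H6.1 lies on chromosome X at 2409691 to 2412966, and hlh-15 overlaps it. The genome position of the probes was not used here, so signal from an overlapping gene was not tested. None of the 5 genes is on chromosome IV, which carries the reporter transgene.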

How the data were processed

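The deposited values are log2 levels that the authors computed by RMA, per the submitters' processing notes. RMA removes background, puts the arrays on a common scale and reduces the probes to 1 value for each probe set. Its version is not given in the sources used here. Gene names came from the authors' deposited table (236 probe sets, false discovery rate 5.03% per the file headers); its score and fold columns were not used. Newer symbols and positions came from RefSeq (WBcel235), where all 5 genes matched.

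After 77 array controls were left out, all 7 arrays were fitted with limma 3.58.1 in R 4.3.3 (two-sided, Benjamini-Hochberg over 22548 probe sets, threshold 0.05). Standard errors are limma's, and the number of arrays limits the precision. On simulated arrays limma recovered 27.2% of 2-fold and 78.4% of 4-fold changes between DD neurons and all cells over 22548 probe sets. A small share of probe sets was raised there by 2-, 4-, 8- or 16-fold, with independent normal noise. The recovered shares hold for that mix and may differ in the real data.

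Genes, lists, the rule for named genes (the members, listed genes that could be named, and the 3 most alike by r) and tests were chosen with earlier results of these data known. The values of mtm-3 and unc-26 as listed genes fall outside that rule and were chosen after being seen. Alternatives were other scalings, a replicate block, a filter on dim probe sets, an intensity trend, medians and leaving out each array.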

Additional observations from a re-analysis of the deposited data

Results flagged for a closer look

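For pld-1 by probe set 175702_s_at, 1 of 6 probe sets looked at in this way, 1 DD array stood apart from its group: DD replicate 4 at 7.97, against 8.47 to 8.54 in DD replicates 1 to 3. Chance flags about 1 in 20 such groups. By 191396_s_at, DD replicate 4 read 7.44, within the range of the other DD arrays. Without DD replicate 4 the log2 difference by 175702_s_at was 1.95.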

How the results depend on the processing

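All 74 alternative values of the 6 differences were above 0, and 58 were at 2-fold or more. The genes were chosen as at least 2-fold higher on these same arrays, so this direction is no separate support. The values are not all distinct. The replicate block gave the same differences as leaving out DD replicate 4, and the mean of both pld-1 probe sets is counted for each of them. Leaving out 1 array gave 1.10 to 1.38 for vps-35, 1.70 to 2.01 and 0.64 to 1.33 for the probe sets of pld-1, 1.09 to 1.53 for C32D5.3, 0.88 to 1.33 for C43H6.1 and 0.72 to 1.28 for D2092.1. Centring on the array controls lowered all 6 differences by the same amount, which follows from the shift of the controls. It gave 0.86 for vps-35, 1.46 and 0.69 for the probe sets of pld-1 and 0.95 for C32D5.3. For C43H6.1 it gave 0.74, and for D2092.1 it gave 0.65. The mean of both pld-1 probe sets was 1.43. By limma, 2 member genes were called as deposited, 1 with control centring and 1 with an intensity trend. Among the brighter probe sets 3 were called, where C32D5.3 was added. With the replicate block 0 were called (6 of 6 probe sets at an unadjusted p under 0.05), and with 1 array left out 0 to 2. Over all 22548 probe sets, limma called 43 higher as deposited, 40 with control centring and 41 with an intensity trend. Of 11274 brighter ones it called 65 higher. With the replicate block it called 2 higher (1444 at an unadjusted p under 0.05), and with 1 array left out 6 to 23. The genes were selected on these arrays, so nothing is read from the member counts.

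Over the whole table, 43 probe sets were called higher and 51 lower. The split was 47 and 28 with median centring, 40 and 393 with control centring and 43 and 33 with quantile normalization. It was 65 and 93 among the brighter probe sets, where fewer were tested. Why the counts changed was not tested. With 1 array left out the counts were 6 to 23 higher and 0 to 39 lower (limma; without DD replicate 1, 1779 lower at an unadjusted p under 0.05).

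With the replicate block limma called 2 higher and 0 lower (1444 and 2075 at an unadjusted p under 0.05). Deviations of same-numbered arrays correlated at -0.005, 0.07 and 0.09. Whether such arrays share more than a number is not in the labels, and these few values cannot decide it. The alternatives for likeness were chosen after seeing the data, and in 29 of 60 the closest gene stayed the closest.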
